A study of Homo sapiens with 12 samples.

Results

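The genes described here build cholesterol and fatty acids under the control of the SREBP transcription factors, and were taken as a fixed list of 36 symbols out of the 62696 gene identifiers in the count tables. They comprised 18 enzymes of cholesterol synthesis, 12 genes of fatty-acid synthesis, 5 regulators of SREBP and STARD4, a carrier of sterols between membranes. Poly(A) RNA was sequenced from SKBR3 and MDA-MB-453, which are 2 established lines of HER2 breast cancer, with and without TWEAK, the TNF superfamily cytokine that binds the receptor Fn14. Each of the 4 groups, untreated SKBR3, SKBR3 with TWEAK, untreated MDA-MB-453 and MDA-MB-453 with TWEAK, had 3 libraries, stated by the study to be biological replicates. Cells were seeded in DMEM with fetal bovine serum, kept for 8 h in Opti-MEM and then given TWEAK at 10 ng/ml for 48 h, with fresh ligand after 24 h. The labels carry the same handling text for untreated cells, so that what these received after 24 h is not stated. Differences between SKBR3 and MDA-MB-453 concern these lines alone. Levels are given as CPM, the counts scaled to a library of 1000000 counts.

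SREBP proteins are made as precursors in the membrane of the endoplasmic reticulum, bound to SCAP, and the INSIG proteins hold this complex there while sterols are plentiful. When sterols fall, SCAP escorts SREBP to the Golgi, proteases release its active part and this part enters the nucleus. SREBF2 encodes SREBP-2, which acts mainly on cholesterol genes, whereas SREBF1 encodes SREBP-1, which acts mainly on fatty-acid genes, and in breast cancer the fatty-acid enzyme FASN is often abundant.

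FASN (ENSG00000169710.9) lies at chr17:82078338-82098294 on the minus strand of GRCh38, SCD (ENSG00000099194.6) at chr10:100347233-100364826 plus, SREBF1 (ENSG00000072310.18) at chr17:17810399-17837002 minus and SREBF2 (ENSG00000198911.12) at chr22:41833105-41907306 plus. THRSP (ENSG00000151365.2) lies at chr11:78063861-78068351 plus, ELOVL6 (ENSG00000170522.10) at chr4:110045846-110199199 minus, INSIG1 (ENSG00000186480.13) at chr7:155297776-155310235 plus, DHCR7 (ENSG00000172893.18) at chr11:71428193-71452868 minus and MVD (ENSG00000167508.12) at chr16:88651935-88663161 minus. Counts are per gene, so that transcripts of 1 gene were not told apart.

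SREBP binds a sterol regulatory element and commonly works with the factor NF-Y, which binds CCAAT. In RefSeq promoter windows of 250 bases before the transcription start (GRCh38.p14), 44 windows of 32 of the 36 genes were examined. SQLE and FDFT1 were left out by choice, not for their values, and FASN and ACAT2 were not examined, so that the counts below do not cover FASN or 2 of the 3 cholesterol genes called in SKBR3. A core of the sterol regulatory element, TCACNCCAC on either strand, was in 0.883% of the 35116 windows of all genes examined and in 1 of the 44, that of SREBF2. Only this form was searched, and only in these windows, so that a missing match does not show that a gene lacks the element. CCAAT on either strand was in 32.0% of all windows and in 27 of the 44, namely 15 of 20 windows of cholesterol enzymes, 9 of 17 of fatty-acid genes, 2 of 6 of regulators and the 1 window of STARD4. The GC box GGGCGG was in 42.6% of all windows and 37 of the 44, and the E-box CACGTG in 6.34% and 5. Motifs were counted separately, so that 1 base could belong to more than 1 of them, and a match of letters is not evidence of binding. Windows of 1 gene could overlap, so that the same CCAAT was counted more than once for SC5D and ACLY. The windows of SCD and THRSP are shown because they are the fatty-acid genes with an examined window that had the lowest adjusted p in SKBR3, and 30 bases each for SREBF2, DHCR7 and INSIG1 because the first holds the sterol element and the others belong to genes that passed a test; capitals mark CCAAT or its complement ATTGG, and in SREBF2 the sterol element.
SCD: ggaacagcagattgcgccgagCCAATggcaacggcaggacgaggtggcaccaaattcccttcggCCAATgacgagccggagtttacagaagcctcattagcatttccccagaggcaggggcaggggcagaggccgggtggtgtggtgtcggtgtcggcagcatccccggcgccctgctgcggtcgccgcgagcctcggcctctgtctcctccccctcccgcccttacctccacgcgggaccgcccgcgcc
THRSP: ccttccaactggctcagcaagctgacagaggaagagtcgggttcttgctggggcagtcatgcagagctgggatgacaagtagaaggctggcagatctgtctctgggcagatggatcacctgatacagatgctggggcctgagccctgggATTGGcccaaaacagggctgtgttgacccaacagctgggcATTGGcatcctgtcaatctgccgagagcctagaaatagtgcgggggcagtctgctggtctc
SREBF2: atgacgcgccaTCACCCCACgcaccgcttc
DHCR7: tcaggctcctcgaCCAATcacggggcgcgg
INSIG1: ccgccggcctcccATTGGttgcggccgcct
On GRCh38.p14 these were chr10:100346983-100347232 on the plus strand for SCD, chr11:78063611-78063860 plus for THRSP, chr22:41832961-41832990 plus for SREBF2, chr11:71448471-71448500 minus for DHCR7 and chr7:155297695-155297724 plus for INSIG1. No exon annotated in GENCODE overlapped the windows of SCD and THRSP, whereas the windows of SREBF2, DHCR7 and INSIG1 around the bases shown had 250, 124 and 102 of their 250 bases within annotated exons.

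The libraries held 24773003 to 35208304 counts each. TWEAK replicate 2 stood apart from replicates 1 and 3 in both lines, with a chi-square per degree of freedom over genes of 21.1 and 23.8 in SKBR3, where other pairs of one group gave 1.78 to 5.74, and of 10.2 and 5.31 in MDA-MB-453, where other pairs gave 2.09 to 2.85. Counts of calls and some single results are therefore also given without it. The non-canonical NF-κB genes NFKB2 and RELB rose with TWEAK in both lines, NFKB2 with log2 fold changes of 1.79 (SKBR3) and 1.67 (MDA-MB-453) and RELB with 1.44 and 2.75. Of 5 epithelial markers, CDH1 was at most 0.29 CPM in SKBR3 and the other 4 were expressed in both lines; all 5 had summed levels of 10716 to 11829 CPM untreated and 11858 to 14502 CPM treated in SKBR3 and 2190.2 to 2423 CPM in MDA-MB-453; KRT19 was called higher after TWEAK in SKBR3. Of 10 markers of blood cells, endothelium, fibroblasts and adipocytes, 7 in SKBR3 and 9 in MDA-MB-453 stayed below 1 CPM in every library, their summed level was 22.1 to 26.0 CPM in SKBR3 and 107 to 123 CPM in MDA-MB-453, mostly COL1A1, and none of the 4 and 2 that could be tested was called with TWEAK by edgeR or DESeq2, with 0 and 1 at an unadjusted p under 0.05.

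The first comparison asked how TWEAK altered these genes in SKBR3. In the fatty-acid branch THRSP fell by 36.1%, FASN fell by 22.5%, ELOVL6 fell by 17.6% and SCD fell by 16.1%. Among the regulators SREBF1 fell by 13.1%. In the cholesterol branch SQLE, DHCR7 and FDFT1 rose by 15.3%, 13.96% and 13.6%. All 36 genes could be tested, and 8 were called at an adjusted p of at most 0.1 with edgeR's quasi-likelihood test, where 10.4% of the 15661 tested genes were called. The 3 higher calls stand beside 6.6% of all tested genes and the 5 lower calls beside 3.82%. Treated libraries lay above all untreated ones in 5 genes and below them in 11, where 14.4% and 12.2% of tested genes did.

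Among the regulators, SREBF1 was at 988, 1016 and 1085 CPM in untreated SKBR3 and at 878, 911 and 906 CPM after TWEAK. All 3 treated libraries lay below all untreated ones, with a log2 fold change of -0.20 (SE 0.0579, edgeR adjusted p = 0.0642, 3 libraries per group). SREBF2 was at 276, 280.0 and 280.1 CPM untreated and at 305, 280.3 and 306 CPM treated. The treated SREBF2 values were all above the untreated ones, by the narrowest margin in TWEAK replicate 2, and the change was not called (0.09, SE 0.0565, edgeR adjusted p = 0.446), while without that replicate it was 0.13 (edgeR adjusted p = 0.0484). SCAP, the escort, was at 107, 103 and 110.2 CPM against 94.1, 99.7 and 97.8 CPM; its groups did not overlap, its log2 fold change of -0.14 was not called (edgeR adjusted p = 0.211), and without TWEAK replicate 2 it was -0.16 (edgeR adjusted p = 0.0363). INSIG1, itself a well-known SREBP target, was level at 72.5, 70.6 and 72.5 CPM against 73.6, 67.7 and 70.2 CPM, with a log2 difference of -0.03 and a 95% interval of -0.17 to 0.10. INSIG2 was at 26.8, 25.4 and 23.2 CPM untreated and at 23.9, 22.9 and 24.6 CPM treated, with overlapping groups and a log2 difference of -0.08.

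In the cholesterol branch, HMGCS1, which condenses acetoacetyl-CoA with acetyl-CoA at the head of the pathway, was at 118, 114 and 110.2 CPM untreated and at 131, 114 and 129 CPM treated. Its groups overlapped through TWEAK replicate 2, the log2 fold change was 0.12 (edgeR adjusted p = 0.37), and without that library it was 0.18 (edgeR adjusted p = 0.0103). MVD, which makes isopentenyl pyrophosphate, was at 40.9, 44.01 and 47.4 CPM untreated and at 50.9, 63.2 and 49.9 CPM treated. Its groups did not overlap and TWEAK replicate 2 was far the highest, yet MVD just missed the threshold at 0.31 (SE 0.0994, edgeR adjusted p = 0.103); without replicate 2 it was 0.19 (edgeR adjusted p = 0.0452), and DESeq2 called it (adjusted p = 0.0626). MVK, an earlier kinase of the pathway, had the opposite sign, from 95.5, 101 and 104 CPM to 83.1, 94.9 and 86.6 CPM, and was not called (-0.19, edgeR adjusted p = 0.161), whereas without replicate 2 it was at -0.24 (edgeR adjusted p = 0.00177).

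FDFT1 encodes squalene synthase, the first enzyme committed to sterols, and SQLE the epoxidase that follows it. FDFT1 was at 130.0, 132 and 137 CPM untreated and at 149.9, 156 and 148 CPM treated. SQLE was at 346, 336 and 324 CPM untreated and at 393, 373 and 400.2 CPM treated. Both genes were higher in every treated library, by 0.18 (SE 0.0575, edgeR adjusted p = 0.0889) for FDFT1 and 0.21 (SE 0.0566, edgeR adjusted p = 0.0535) for SQLE on the log2 scale. DHCR7, the reductase that ends one route to cholesterol, was at 273, 268 and 287 CPM untreated and at 315, 314 and 318 CPM treated, again without overlap (0.19, SE 0.0548, edgeR adjusted p = 0.0678). The other cholesterol genes, ACAT2, PMVK, IDI1, FDPS, LSS, CYP51A1, TM7SF2, MSMO1, NSDHL, HSD17B7, EBP and SC5D, were not called. Across the branch 14 of 18 log2 fold changes were positive, with a median of 0.10 beside -0.0074 over all tested genes. None was called lower by edgeR or DESeq2, and 1, MVK, was lower at an unadjusted p under 0.05. STARD4 was at 35.6 to 40.8 CPM untreated and 27.7 to 34.5 CPM treated, a log2 difference of -0.25 that was not called (edgeR adjusted p = 0.145).

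FASN, the multienzyme that assembles palmitate, was at 9681, 10272 and 10785 CPM in untreated SKBR3 and at 7964, 7362 and 8586 CPM after TWEAK. Every treated library was below every untreated one, with a log2 fold change of -0.37 (SE 0.0705, edgeR adjusted p = 0.00767). FASN ranked 2 or 3 among all genes of untreated SKBR3 by CPM, with 0.941% to 1.04% of all counts, and held 0.686% to 0.813% after TWEAK. SCD, the desaturase that turns saturated into monounsaturated acyl chains, was at 1885, 1929.6 and 1914 CPM untreated and at 1664, 1476 and 1687 CPM treated (-0.25, SE 0.0625, edgeR adjusted p = 0.0323). ELOVL6, which lengthens palmitate, was at 94.2, 100.3 and 89.8 CPM against 83.4, 68.7 and 83.1 CPM (-0.28, SE 0.0825, edgeR adjusted p = 0.0716). In both genes TWEAK replicate 2 was the lowest library and no treated value reached an untreated one. THRSP, a small protein linked to lipogenesis, was far less abundant, at 7.68, 8.52 and 8.04 CPM untreated and at 4.85, 4.81 and 5.88 CPM treated. It had the largest fall of the 36 genes on the log2 scale, -0.65 (SE 0.113, edgeR adjusted p = 0.0042), from 195 to 214 counts per library to 120 to 141.

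The remaining fatty-acid genes of SKBR3 were not called. ACLY, the source of cytosolic acetyl-CoA, was at 1114 to 1151 CPM untreated and 974 to 1088 CPM treated, without overlap (-0.11, edgeR adjusted p = 0.321). ACACA, the carboxylase that makes malonyl-CoA for synthesis, was at 63.6, 66.8 and 57.1 CPM against 57.4, 37.3 and 61.4 CPM; TWEAK replicate 2 alone was low, and the log2 difference of -0.27 had a 95% interval of -0.60 to 0.06. ELOVL5 was at 135 to 142 CPM against 111 to 130.1 CPM (-0.17, edgeR adjusted p = 0.208), ME1 at 103 to 107 CPM against 91.8 to 103 CPM (-0.09), and ACSS2, which activates acetate, at 121 to 133 CPM against 128 to 140.3 CPM (0.06). ACACB, FADS1 and FADS2 lay between 0.371 and 12.7 CPM with overlapping groups. Of the 12 fatty-acid genes 9 had negative log2 fold changes, with a median of -0.15, and none was called higher by edgeR or DESeq2 or was higher at an unadjusted p under 0.05.

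The calls of SKBR3 differed in how far they depended on single libraries. FASN and THRSP kept theirs in each of 14 alternative settings. Their log2 fold changes ran from -0.42 to -0.31 (FASN) and from -0.74 to -0.59 (THRSP). Over the same settings SCD ran from -0.29 to -0.19 and ELOVL6 from -0.32 to -0.19. SCD lost its call without each untreated replicate (edgeR adjusted p of 0.122 to 0.164), as did ELOVL6 (0.124 to 0.312). SREBF1, SQLE and FDFT1 lost theirs without any one library other than TWEAK replicate 2, with edgeR adjusted p of 0.131 to 0.231, 0.138 to 0.229 and 0.135 to 0.344. FDFT1 was also not called by DESeq2 (adjusted p = 0.107). DHCR7 lost it without untreated replicate 1 or 2 or TWEAK replicate 1 or 3 (edgeR adjusted p of 0.157 to 0.332). With a replicate block, a term for the replicate number, ELOVL6, SREBF1, SQLE, FDFT1 and DHCR7 also lost their calls, so that no cholesterol rise stayed called. Without a filter on low counts DHCR7 and FDFT1 were not called (edgeR adjusted p = 0.14 and 0.214), whereas MVD, ACACA and STARD4 were (edgeR adjusted p = 0.011, 0.0202 and 0.0602). No share over all genes in that setting stands beside these gains. Without TWEAK replicate 2 the calls were 7 higher, HMGCS1, FDFT1, SQLE, DHCR7, SC5D, MVD and SREBF2, and 8 lower, SCAP, ELOVL6, SCD, TM7SF2, THRSP, MVK, SREBF1 and FASN. In that setting 9.93% of all tested genes were called higher and 7.45% lower, so that calls grew across all genes as well. An exact permutation test of 3 against 3 libraries cannot go below 0.1, so that single genes rest on the spread estimated over all genes.

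**Figure D1:**
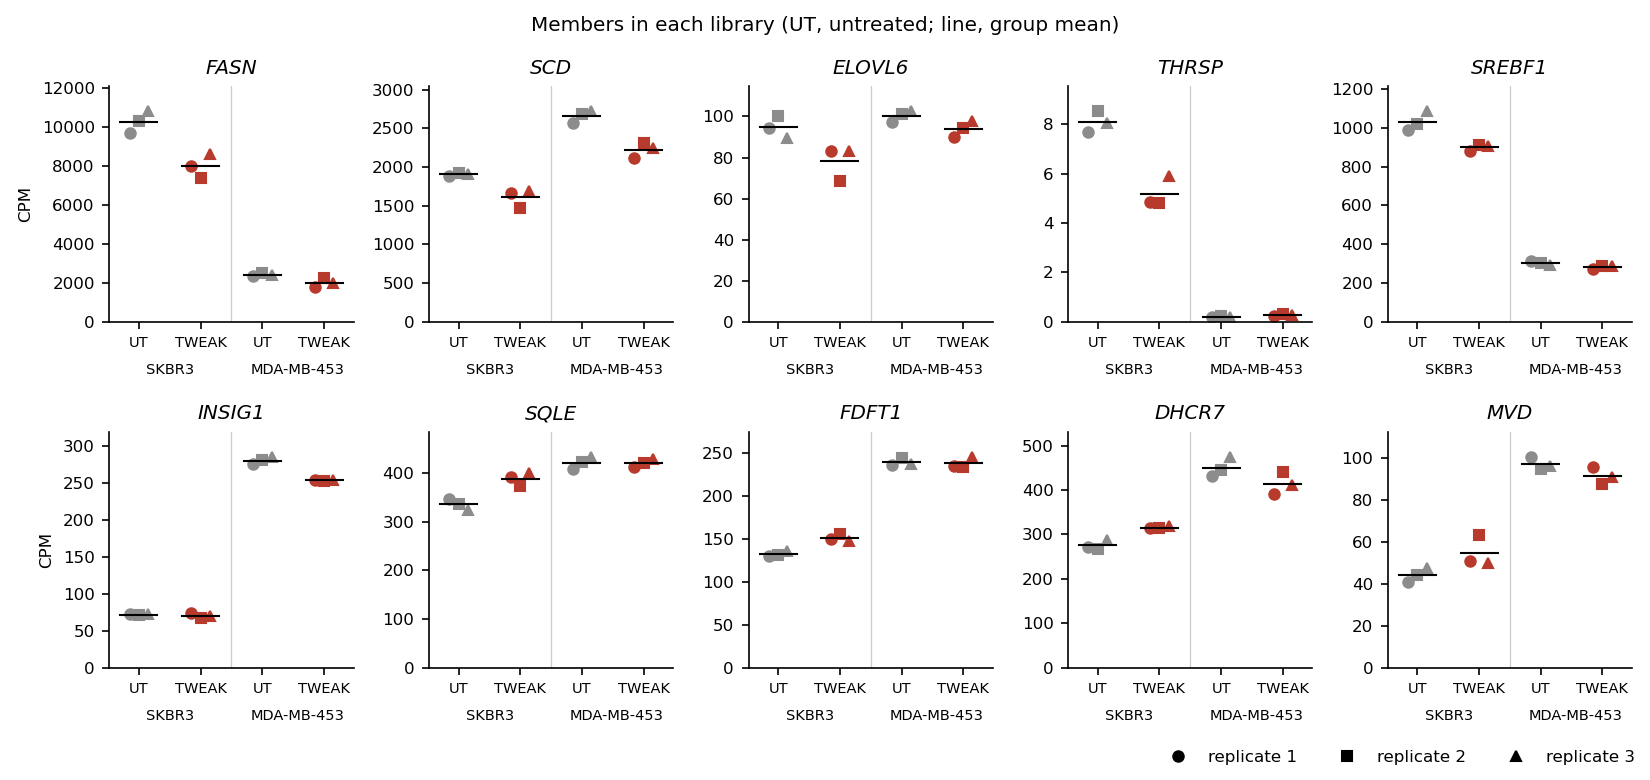
Level of 10 genes in every library, in CPM on axes that start at 0, with grey symbols for untreated (UT) and red for TWEAK, symbol shapes for replicates and a line at the group mean. FASN, SCD and SREBF1 lie lower after TWEAK in every library of both lines, whereas SQLE, FDFT1, DHCR7 and MVD lie higher in every treated library of SKBR3 only and overlap in MDA-MB-453.

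The same comparison in MDA-MB-453 showed falls in the fatty-acid branch and no rise in the cholesterol branch. FASN fell by 16.9%, SCD fell by 16.3% and INSIG1 fell by 9.54%. Of the 36 genes 34 could be tested, and these 3 were called lower, where 1.49% of 14929 tested genes were called, 1.29% higher and 0.208% lower. No gene lay above all untreated libraries in every treated one and 7 lay below, where 8.2% and 6.88% of tested genes did. No gene of the list was called higher by edgeR or DESeq2 or was higher at an unadjusted p under 0.05, while 11 were lower at that level, where 4.57% of all tested genes were. ME1 and THRSP were not tested, with 0 to 2 and 5 to 10 counts per library.

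INSIG1 was at 275, 280.4 and 284 CPM in untreated MDA-MB-453 and at 254, 252 and 254 CPM after TWEAK, with a log2 fold change of -0.14 (SE 0.0342, edgeR adjusted p = 0.0686). Every treated library was lower, and the drop was small against the level of the gene. SREBF1 was at 314, 302 and 294 CPM untreated and at 275, 285 and 288 CPM treated, again without overlap but not called (-0.10, SE 0.0384, edgeR adjusted p = 0.343; without TWEAK replicate 2, -0.11 and edgeR adjusted p = 0.0451). SREBF2 was at 526, 547 and 539.9 CPM against 483, 539 and 516 CPM, SCAP at 99.6, 100.5 and 102 CPM against 91.6, 102 and 97.2 CPM, and INSIG2 at 88.1, 89.1 and 91.9 CPM against 91.8, 87.0 and 93.0 CPM. The groups of these last 3 genes overlapped, with log2 differences of -0.07, -0.05 and 0.01. Without TWEAK replicate 2 SREBF2 was at -0.11 (edgeR adjusted p = 0.0442).

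FASN was at 2368, 2495 and 2377 CPM untreated and at 1779, 2229 and 2005 CPM treated in MDA-MB-453, with TWEAK replicate 2 nearest to the untreated libraries. The groups did not overlap, and the log2 fold change was -0.27 (SE 0.0619, edgeR adjusted p = 0.0589), or -0.35 without TWEAK replicate 2 (edgeR adjusted p = 2.75e-07). FASN held 0.247% to 0.262% of all counts untreated and 0.187% to 0.234% treated. SCD was at 2571, 2689 and 2721 CPM untreated and at 2122, 2313 and 2244 CPM treated. All treated values of SCD were below all untreated ones (-0.26, SE 0.0398, edgeR adjusted p = 0.00292). ACACA was at 136, 146 and 145 CPM against 98.5, 136 and 121 CPM, so that only TWEAK replicate 2 met the untreated range. Its log2 difference of -0.26 was not called (edgeR adjusted p = 0.239). Without TWEAK replicate 2 the difference was -0.37 (edgeR adjusted p = 2.08e-05). Without a filter on low counts it stayed at -0.26, while the edgeR adjusted p was 8.39e-07. In both of these settings lower calls grew across all genes as well. FADS2, the delta-6 desaturase, was at 39.3 to 40.9 CPM against 34.1 to 38.2 CPM, and ACLY at 346 to 358 CPM against 308 to 338 CPM; neither was called, with log2 differences of -0.15 and -0.11 (edgeR adjusted p = 0.264 and 0.335). ACACB, ELOVL6 and FADS1 gave -0.21, -0.09 and -0.09, also not called. All 10 tested fatty-acid genes had negative log2 fold changes, with a median of -0.13 beside 0.0016 over all tested genes.

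In the cholesterol branch of MDA-MB-453, SQLE was at 408, 424 and 433 CPM untreated and at 413, 420.0 and 429 CPM treated, and FDFT1 at 236, 245 and 238 CPM against 236, 234 and 246 CPM. Both were level, with 95% intervals of the log2 difference of -0.08 to 0.07 for each. DHCR7 was at 432, 446 and 474 CPM against 392, 439.8 and 412 CPM, MVD at 100.5, 94.6 and 96.2 CPM against 95.6, 87.6 and 90.9 CPM, and HMGCS1 at 527, 559 and 547 CPM against 515, 529 and 526 CPM. These groups overlapped, and the log2 differences of -0.12, -0.09 and -0.06 were not called. LSS, which closes the sterol rings, was at 87.3 to 97.2 CPM against 77.7 to 88.7 CPM (-0.15, edgeR adjusted p = 0.348). Of 18 cholesterol genes 15 had negative log2 fold changes, the median was -0.036, and none was called lower, with 2 lower at an unadjusted p under 0.05 and none by DESeq2. With a replicate block, however, DHCR7 and LSS were called lower, at -0.12 and -0.15 (edgeR adjusted p = 0.0431 and 0.0193). With that block lower calls grew across all genes as well, from 31 without it to the count given further below.

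SCD kept its call in MDA-MB-453 in each of 14 alternative settings. FASN and INSIG1 lost theirs without each untreated replicate or without TWEAK replicate 3 (edgeR adjusted p of 0.155 to 0.392 and 0.139 to 0.436), and in a fit over all 12 libraries (0.16 and 0.329). Without TWEAK replicate 2, 11 genes were called lower, INSIG1, SCD, FADS2, DHCR7, ACACB, SREBF1, ACACA, ACLY, FASN, LSS and SREBF2, where 7.22% of all tested genes were called lower in that setting. In the fits of 6 libraries for each line FASN and SCD were the genes of the list called lower in both lines, where 0.0741% of 13489 genes tested in both lines were. None was called higher in both, where 0.89% were.

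**Figure D2:**
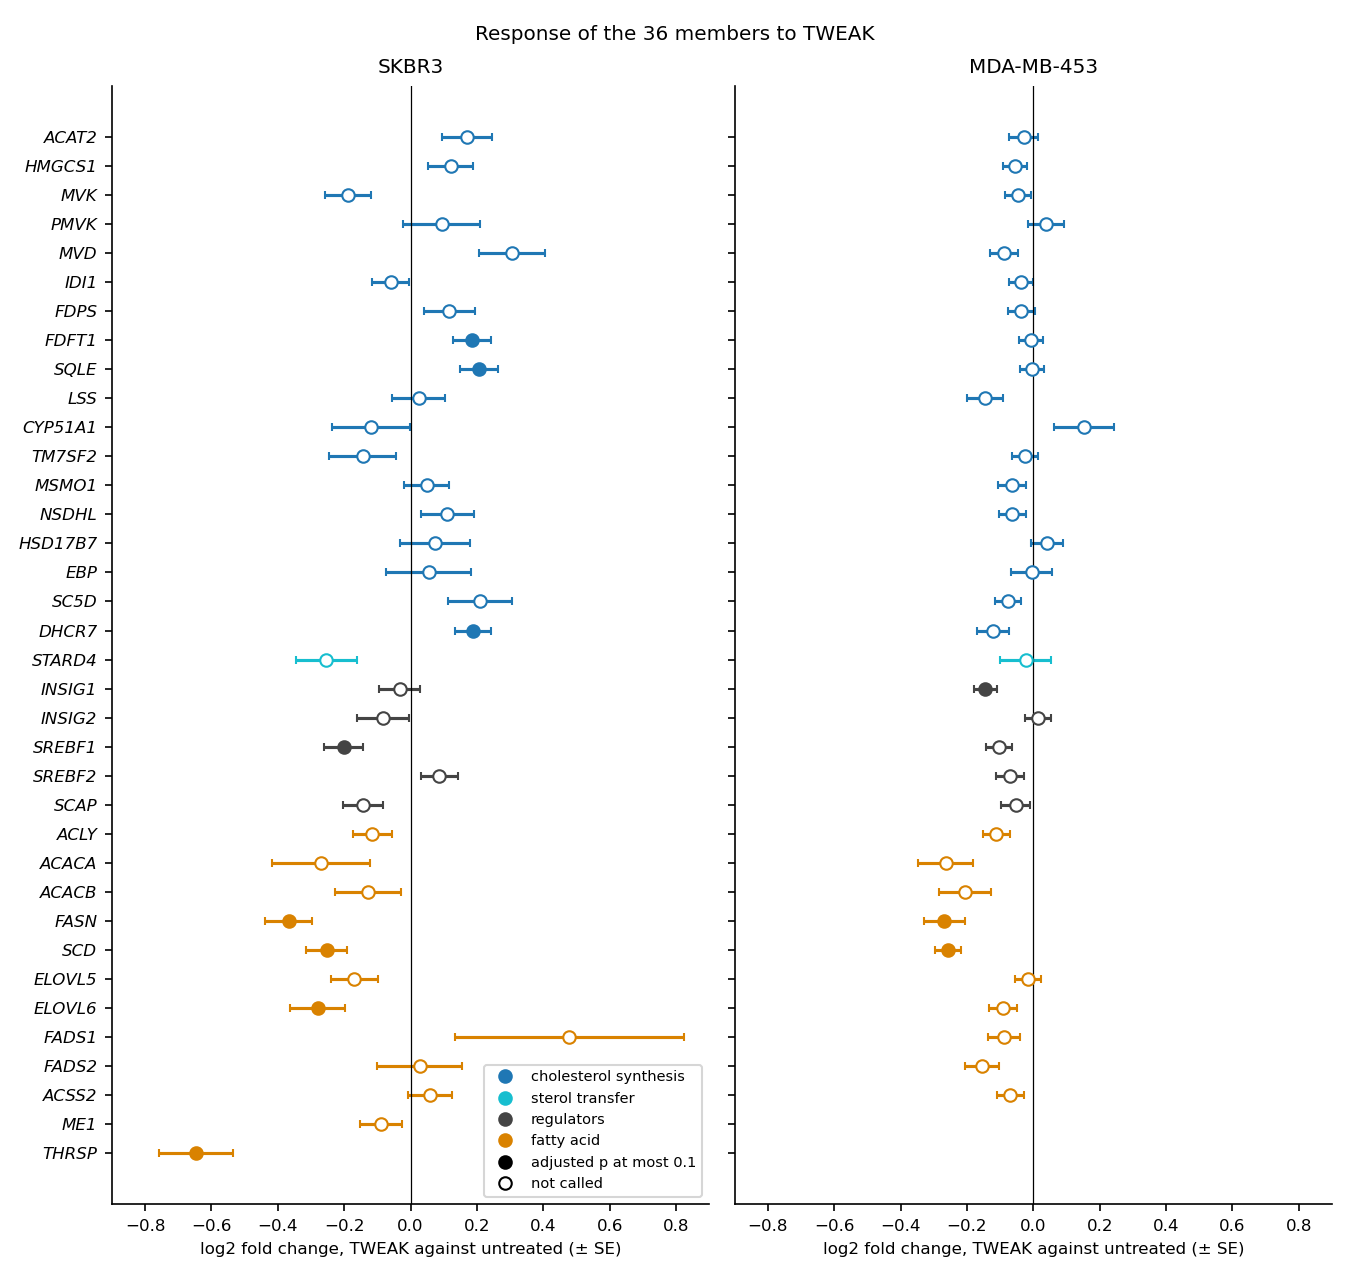
Log2 fold change with its standard error for each of the 36 genes after TWEAK in SKBR3 (left) and MDA-MB-453 (right), coloured by branch, with filled symbols for genes called at an adjusted p of at most 0.1. In SKBR3 most cholesterol genes lie right of 0 and most fatty-acid genes left of it, whereas in MDA-MB-453 nearly all lie at or left of 0; ME1 and THRSP were not tested in MDA-MB-453.

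An interaction term in a fit of all 12 libraries asked whether MDA-MB-453 and SKBR3 responded differently, and is given as the log2 response of MDA-MB-453 minus that of SKBR3. DHCR7 and MVD differed, with interactions of -0.31 (SE 0.0731, 95% interval -0.47 to -0.16, edgeR adjusted p = 0.0265) and -0.40 (SE 0.111, 95% interval -0.63 to -0.16, edgeR adjusted p = 0.0798). These were 2 lower calls among 36 genes, where 3.37% of 17201 tested genes were called, 1.01% higher and 2.36% lower. No gene of the list was called higher by edgeR or DESeq2, and 1, THRSP, had a positive interaction at an unadjusted p under 0.05, from a few counts in MDA-MB-453. SQLE (-0.22, 95% interval -0.35 to -0.08, edgeR adjusted p = 0.114) and FDFT1 (-0.20, 95% interval -0.33 to -0.06, edgeR adjusted p = 0.154) were not called. DESeq2 called both, at adjusted p of 0.025 and 0.0507. The fatty-acid genes showed no difference that passed the test: the interval for FASN was -0.12 to 0.31 around 0.09, and that for SCD -0.17 to 0.15 around -0.01. The value for FASN rested on single libraries, at 0.0069 without TWEAK replicate 2 and 0.17 without TWEAK replicate 1 of MDA-MB-453, and at 0.056 without TWEAK replicate 2 and 0.15 without TWEAK replicate 3 of SKBR3. SREBF1 gave 0.09 with an interval of -0.05 to 0.23. The call of DHCR7 was lost without MDA-MB-453 untreated replicate 3 (edgeR adjusted p = 0.105). That of MVD was lost when untreated replicate 1 or 2 of SKBR3, any untreated replicate of MDA-MB-453 or its TWEAK replicate 2 or 3 was left out, with edgeR adjusted p of 0.13 to 0.223. Without TWEAK replicate 2 of SKBR3 7 genes were called lower, HMGCS1, SQLE, DHCR7, SC5D, MVD, LSS and SREBF2, and MVK was called higher, where 3.67% and 2.87% of all tested genes were.

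Read by branch, the median log2 fold change of cholesterol genes exceeded that of fatty-acid genes by 0.25 in SKBR3 and by 0.096 in MDA-MB-453. The value for SKBR3 became 0.11 without TWEAK replicate 2 and 0.37 without TWEAK replicate 3, and that for MDA-MB-453 0.033 without TWEAK replicate 1. Averaged over genes of at least 1 CPM, the fatty-acid branch of the treated SKBR3 libraries lay at -0.17, -0.32 and -0.12 relative to the untreated mean on the log2 scale and the cholesterol branch at 0.064, 0.13 and 0.039. In treated MDA-MB-453 libraries the fatty-acid branch lay at -0.24, -0.089 and -0.13 and the cholesterol branch at -0.020, -0.059 and -0.016. TWEAK replicate 2 was thus the furthest from untreated cells in SKBR3 and the nearest in the fatty-acid branch of MDA-MB-453. Summed CPM of the fatty-acid branch was 7.53 to 8.06 times that of the cholesterol branch in untreated SKBR3 and 5.26 to 6.27 times after TWEAK. In MDA-MB-453 the ratio was 1.67 to 1.71 untreated and 1.36 to 1.59 treated, so that it was lower in every treated library of each line. This ratio mostly follows FASN and SCD, which together held 85.8% to 88.5% of the fatty-acid sum in SKBR3 and 84.5% to 85.9% in MDA-MB-453. No test was made of the branches as wholes.

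**Figure D3:**
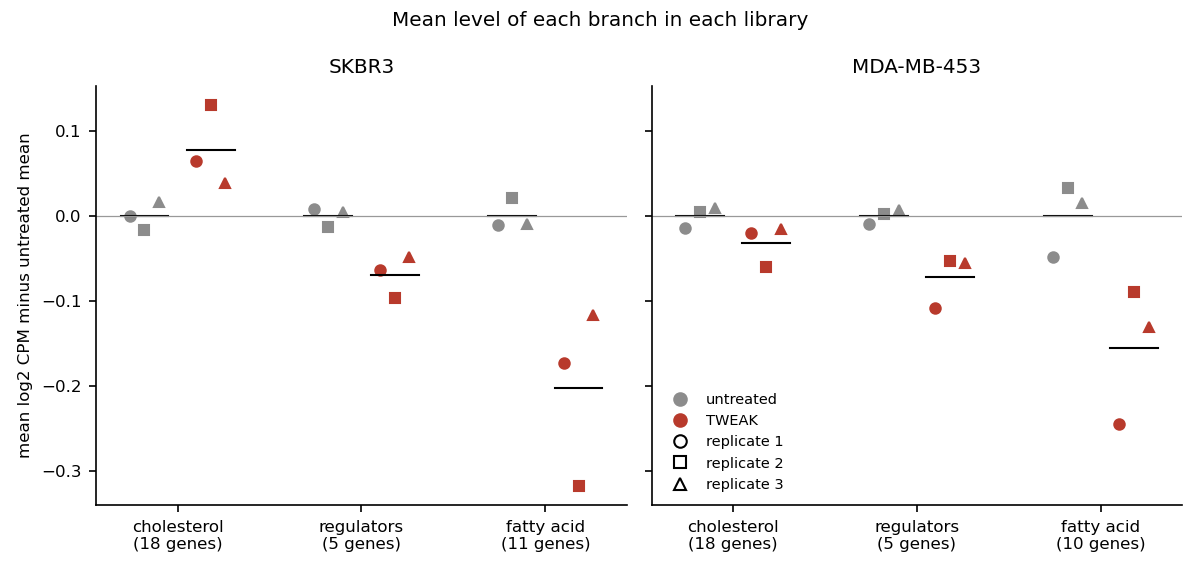
Mean log2 CPM of the genes of each branch in every library, as the difference from the untreated mean of the same line, for 18 cholesterol genes, 5 regulators and 11 (SKBR3) or 10 (MDA-MB-453) fatty-acid genes of at least 1 CPM. Grey is untreated, red is TWEAK, shapes are replicates and lines are group means. Fatty-acid means lie below untreated in all treated libraries, and cholesterol means lie above it in SKBR3 and slightly below it in MDA-MB-453.

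Before TWEAK the lines differed in most genes of the pathway. Untreated MDA-MB-453 exceeded untreated SKBR3 in 17 of 18 cholesterol genes, and SKBR3 exceeded MDA-MB-453 in FASN, ACLY and SREBF1, by 4.25-fold, 3.21-fold and 3.39-fold. The fatty-acid branch went both ways, with 4 of 12 genes higher in MDA-MB-453, 6 lower and 2 not called. MDA-MB-453 had 24 of the 36 genes at higher and 9 at lower levels, where 84.2% of 17201 genes differed between lines, 40.7% higher and 43.5% lower, so that a difference as such was the rule. The libraries of the lines did not overlap in 24 genes above and 10 below, where 40.8% and 43.5% of all genes did not. SCAP, ACACB and ELOVL6 were not called, with log2 differences of -0.09, -0.09 and 0.08, although DESeq2 called SCAP lower. The log2 differences are given as MDA-MB-453 minus SKBR3, and all differences come from the fit over 12 libraries.

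The regulators split. SREBF1 was at 1029.7 ± 49.6 CPM (SD, n = 3) in SKBR3 and 304 ± 10.2 CPM in MDA-MB-453, a log2 difference of -1.76 (SE 0.0483), while SREBF2 was at 279 ± 2.31 against 538 ± 10.9 CPM, a difference of 0.95 (SE 0.0504). The ratio of SREBF1 to SREBF2 was 3.58 to 3.87 in untreated SKBR3 and 0.545 to 0.598 in untreated MDA-MB-453, so that the more abundant SREBF gene differed by line. INSIG1 and INSIG2 were higher in MDA-MB-453 by 1.96 (SE 0.0464) and 1.83 (SE 0.0602). HMGCS1 led the cholesterol branch, at 114 ± 4.03 against 544 ± 16.4 CPM (2.25, SE 0.056), followed by SC5D at 1.94, HSD17B7 at 1.77 and TM7SF2 at 1.64. CYP51A1, the lanosterol demethylase, was the exception at -0.90, and STARD4 was also lower, at -2.02.

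In the fatty-acid branch the log2 difference of MDA-MB-453 from SKBR3 was -2.09 (SE 0.0742) for FASN, -1.68 for ACLY, -0.87 for ELOVL5 and -0.82 for ACSS2. ACACA was higher by 1.19 and SCD by 0.48. The desaturases FADS1 and FADS2, which serve polyunsaturated fatty acids, were higher by 6.32 and 3.20, with FADS1 at 9 to 17 counts per untreated SKBR3 library and 1005 to 1114 in MDA-MB-453. The reverse held for 2 genes: THRSP was lower, at -5.25, and ME1, the malic enzyme that supplies NADPH, had 2487 to 2977 counts per untreated SKBR3 library and 1 or 2 in MDA-MB-453, at least 909-fold lower when 3 counts are taken as the floor of a library. Each of these differences kept its sign and its call in every alternative setting run, except that a minimum of 10 counts in every library removed FADS1, THRSP and ME1.

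Per kilobase of exon, the order of levels in untreated SKBR3 was FASN at 1099, SCD at 364, ACLY at 217, SREBF1 at 125, SQLE at 78.0 and FDPS at 61.6 CPM per kb. The libraries of neighbours in this order did not overlap. In untreated MDA-MB-453 SCD came first at 507, then FASN at 259, FDPS at 129, SQLE at 97.9, HMGCS1 at 82.1, PMVK at 77.2 and INSIG1 at 76.6 CPM per kb. Only the last pair overlapped in range, at 75.8 to 79.2 and 75.2 to 77.9. FADS1 was lowest in SKBR3 at 0.0468 CPM per kb and ME1 in MDA-MB-453 at 0.0184 CPM per kb. After TWEAK FASN and SCD kept the first and second place in SKBR3, at 855 and 307, and SCD and FASN in MDA-MB-453, at 424 and 215.

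**Figure D4:**
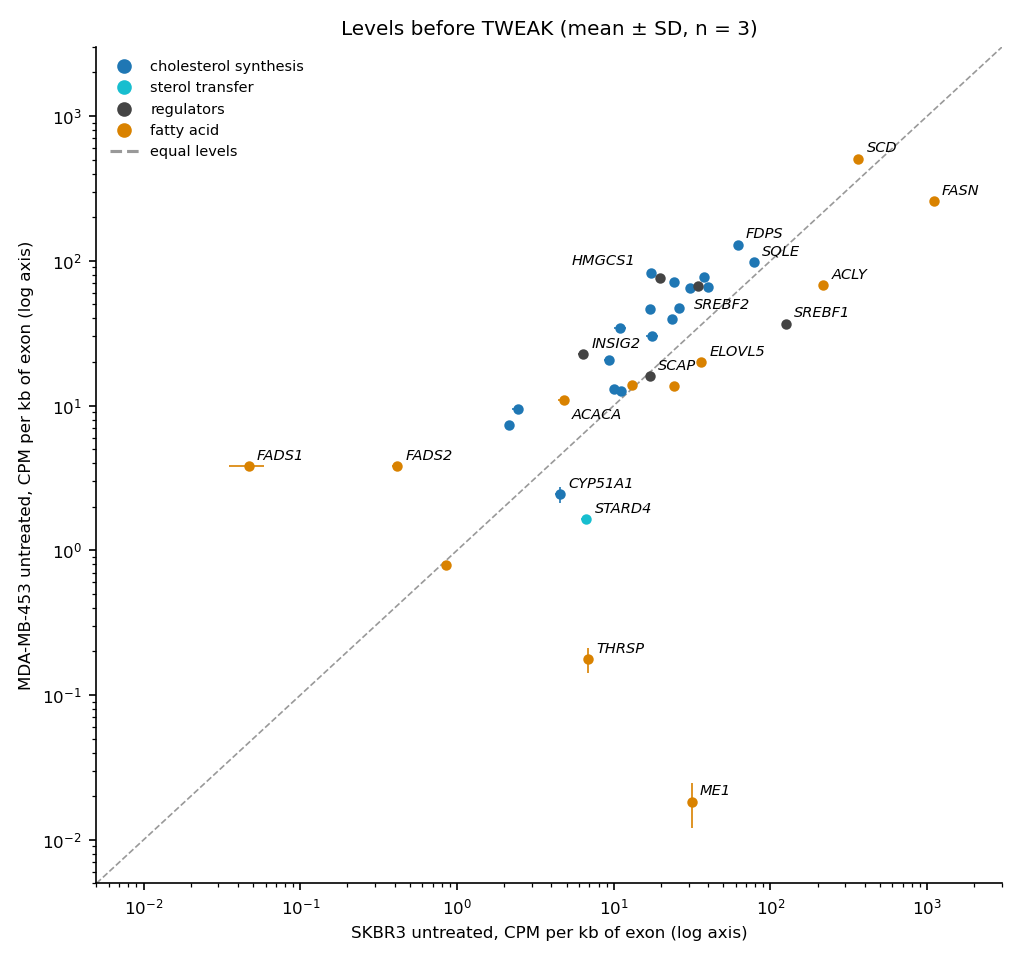
Level of each gene per kilobase of exon in untreated SKBR3 (horizontal, CPM per kb, log axis) against untreated MDA-MB-453 (vertical, CPM per kb, log axis), as mean with SD of 3 libraries, coloured by branch. Most cholesterol genes lie above the line of equal levels, FASN, ACLY and SREBF1 lie below it, and FADS1, FADS2, THRSP and ME1 lie furthest from it.

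Some levels may include reads of neighbours, since the strand setting and the handling of multiply mapped reads were not given. CYP51A1 shared 68.19% of its exonic bases with other models on its own strand and EBP 36.43%, HMGCS1 37.68% with a model on the opposite strand, and ACAT2 22.24% with SOD2, SOD2-OT1 and TCP1. Named pseudogenes exist for FDPS (8), IDI1 (3), CYP51A1 (3), HSD17B7 (2) and SCD (1). FASN, SQLE and DHCR7 shared no exonic base with another model.

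Neighbouring lipid pathways were read from 6 further lists, whose counts stand beside the 10.4% of all tested genes called in SKBR3 and 1.49% in MDA-MB-453. None of 15 SREBP processing and partner genes (proteases, ubiquitin ligases and liver X receptors among them), 9 genes of isoprenoid branches or 12 tested genes of fatty-acid oxidation was called in SKBR3 by edgeR, with 2, 0 and 4 at an unadjusted p under 0.05, where 19.7% of all tested genes were, and DESeq2 called MBTPS2 of the first list lower and ACADVL of the last higher, both named after their values were seen. In MDA-MB-453 none of 14, 9 and 14 tested genes was called by either tool, with 2, 1 and 2 at that level, where 10.5% were. Nor was any of 10 sterol storage and transport genes or 16 further genes of fatty-acid synthesis, with 1 and 0 at that level. Of 12 sterol storage and transport genes tested in SKBR3, 4 were called: ABCG1, a sterol exporter and liver X receptor target, fell by 0.65 on the log2 scale (edgeR adjusted p = 0.000741), NCEH1, a cholesteryl ester hydrolase, rose by 0.44 (edgeR adjusted p = 0.00585), and CYP27A1, the sterol 27-hydroxylase, was at least 7.30-fold higher, from 2 or 3 counts per library to 14 to 28. CYP27A1 was not tested in MDA-MB-453, where it had 0, 3 and 2 counts untreated and 11, 4 and 9 after TWEAK. LPCAT3, the fourth, was named after its value was seen; it was at -0.18 (edgeR adjusted p = 0.0752) and lost its call without any one library other than TWEAK replicate 2, at up to 0.27, and without a filter on low counts (edgeR adjusted p = 0.148). Of 16 other genes of fatty-acid synthesis and activation tested in SKBR3, 2 were called: FADS3 rose by 1.17 (edgeR adjusted p = 6.81e-06) and the elongase ELOVL1 by 0.54 (edgeR adjusted p = 0.000402). Of 9 glycerolipid genes, LPIN1, a phosphatidate phosphatase, rose by 0.50 (edgeR adjusted p = 0.000741) and DGAT2, which completes triacylglycerol, by 2.29 (edgeR adjusted p = 4.15e-07).

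DGAT2 was at 3.99, 3.23 and 3.30 CPM in untreated SKBR3 and at 16.3, 18.6 and 17.1 CPM after TWEAK, and in MDA-MB-453 at 9.76, 10.3 and 8.03 CPM against 13.7, 13.2 and 13.3 CPM. It was higher in every treated library of both lines and was the 1 gene of these lists called in MDA-MB-453 (0.51, SE 0.0852, edgeR adjusted p = 0.00523). ELOVL1 was at 183, 179.7 and 194 CPM against 258, 291 and 261 CPM in SKBR3, while in MDA-MB-453 it was at 117 to 120.4 CPM against 114 to 123 CPM. SKBR3 thus had elongase genes moving both ways, with ELOVL6 lower and ELOVL1 higher in each treated library.

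**Figure D5:**
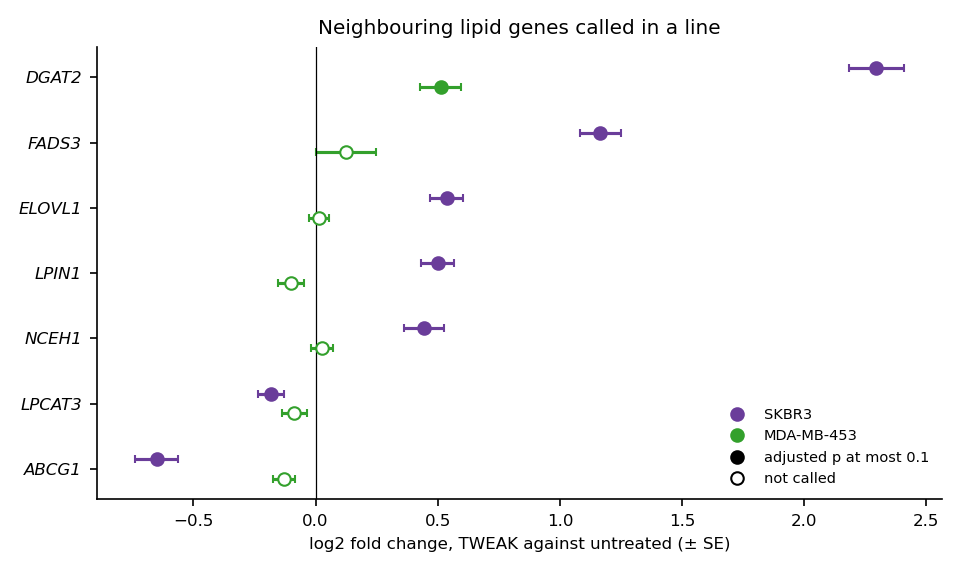
Log2 fold change with its standard error after TWEAK in SKBR3 (purple) and MDA-MB-453 (green) for 7 of the 8 lipid genes outside the list of 36 that were called in a line, filled where called; CYP27A1, at 2 or 3 counts per untreated SKBR3 library, is left out. DGAT2 is called higher in both lines, at 2.29 and 0.51, and the other genes plotted in SKBR3 only; whether their responses differ between lines was tested separately.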

How the data were processed

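RNA-seq counts of 12 libraries were analysed. Per the submitters' processing notes, the authors used Trimmomatic, STAR on hg38 and featureCounts, and deposited raw counts per gene without normalisation; tool versions, strand setting and annotation release were not given in the sources used here. Of 62696 identifiers, 62672 matched GENCODE release 44 without version, which gave symbols, exon lengths and overlaps. All 36 members were found once.

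The 36 members, the other lists and the alternatives were chosen with earlier results of these data known. Values in every library are given for called members, the 5 regulators and a few key enzymes; up to 3 genes per further list and line were named by size of change, with the exception stated. Tests used edgeR 4.0.16 in R 4.3.3 (filterByExpr, TMM, quasi-likelihood, Benjamini-Hochberg over all tested genes, threshold 0.1, no replicate term), within a line on 6 libraries and otherwise on all 12. The study's DESeq2 (version 1.42.0 here) was an alternative. Fitted fold changes used a prior count of 0.125, and printed CPM used TMM factors over 12 libraries. Promoter windows came from RefSeq. Scripts were tested on simulated counts. The alternatives were other size factors, DESeq2, other filters, a replicate block, a 12-library fit, a threshold of 0.05, leaving out each library, and, added after seeing the data, a GC and length correction.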

Additional observations from a re-analysis of the deposited data

Results flagged for a closer look

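In 8 of the 113 lipid genes tested the response to TWEAK differed between the lines by the interaction test (edgeR, Benjamini-Hochberg over all tested genes), given as the log2 response of MDA-MB-453 minus that of SKBR3, where 3.37% of all 17201 tested genes differed. The differences were -0.40 for MVD, -0.31 for DHCR7, -0.42 for NCEH1, -0.53 for ELOVL1, -1.05 for FADS3, -0.60 for LPIN1, -1.79 for DGAT2 and 0.51 for ABCG1. Of these, MVD and DHCR7 are cholesterol enzymes of the list of 36, and the other 6 belong to neighbouring pathways.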

How the results depend on the processing

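The limits are 3 libraries per group, 2 lines and a TWEAK replicate 2 that stood apart; counting error is small at these depths except for FADS1 and untreated CYP27A1 in SKBR3 and ME1 and THRSP in MDA-MB-453, where a few counts decide the value. Within each line where they were tested, FASN, SCD and THRSP kept their sign in every setting run. The cause of the changes below was not tested.

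At an adjusted p of 0.05, 798 genes were higher and 363 lower in SKBR3, with 0 members higher and 3 lower, 17 genes and 1 member were lower in MDA-MB-453, and the interaction had 95 higher and 306 lower genes with 1 lower member. The fit of 12 libraries gave 1507 higher and 1068 lower genes in SKBR3 with 6 members higher and 8 lower, and 13 lower genes and 1 member in MDA-MB-453. The GC and length correction, chosen after seeing the data, gave 1554 higher and 1156 lower genes in SKBR3 with 7 and 9 members, 74 lower genes in MDA-MB-453, and an interaction with 429 higher and 571 lower genes and 7 lower members. Without a filter, MDA-MB-453 had 302 higher and 178 lower genes. DESeq2 and a minimum of 10 counts each gave 4 lower members in the interaction, among 464 and 396 lower genes.

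The paper states that cell-line experiments were repeated independently on different days, but the sample titles do not tie a replicate number to a day. Deviations of same-numbered libraries correlated weakly, at 0.081, -0.076 and -0.111 (SKBR3) and 0.051, 0.039 and 0.0012 (MDA-MB-453). These values do not show a pairing, and such weak correlations do not exclude one. The replicate block gave 824 higher and 387 lower genes in SKBR3 with 0 members higher and 3 lower (without the calls of ELOVL6, SREBF1, SQLE, FDFT1 and DHCR7), 490 higher and 404 lower genes in MDA-MB-453 with 9 members lower, and 101 higher genes in the interaction.

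Leaving out 1 library gave in SKBR3 686 to 1589 higher and 240 to 1191 lower genes (members 0 to 7 and 2 to 8), for MDA-MB-453 120 to 1003 and 10 to 1098 (members lower 1 to 11), and 90 to 505 and 304 to 645 in the interaction (members 0 to 1 and 0 to 7). The branch difference was 0.11 to 0.37 for SKBR3 and 0.033 to 0.13 for MDA-MB-453. Only called results and a chosen set of uncalled ones were followed gene by gene through the settings. Among these, signs turned in MDA-MB-453 for FDFT1 (-0.026 to 0.0078), SQLE (-0.026 to 0.015) and INSIG2 (-0.0034 to 0.040). The sign also turned for the interaction of SCD (-0.053 to 0.024, and 0.0066 without a filter). All of these values were near 0.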
